A study of Mus musculus with 12 samples.

Results

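Heart muscle holds macrophages that live in the tissue for long periods and others that arrive from the blood as monocytes. The genes described here are 36 genes of macrophages, monocytes and chemokines, matched by gene symbol in the count tables of 12 mouse ventricles. All 36 were found among the 14957 genes of those tables, and 35 of them passed the filter on low counts and were tested. The one left out of the tests was Spp1.

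The study asked what BacNav gene therapy does in pressure-overloaded hearts of C57Bl/6J mice, all of wild-type genotype, with 4 mice in each of 3 groups. TAC-BacNav mice had transverse aortic constriction (TAC), a narrowing of the aorta that loads the left ventricle, and an AAV9 vector in which the MHCK7 promoter drives BacNav, a bacterial sodium channel, together with the fluorescent protein mScarlet. TAC-mScarlet mice had the same constriction and an AAV9 vector with MHCK7 and mScarlet alone. Sham-NT mice were operated on without constriction and injected with PBS, so that they carried no vector. The constriction and the vector therefore differ together between TAC-mScarlet and Sham-NT and cannot be told apart, whereas TAC-BacNav and TAC-mScarlet differ in BacNav. MHCK7 is a promoter of striated muscle and drives both vectors. Sources used here do not give age, sex or the time from operation to collection.

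Resident macrophages of the heart carry scavenger receptors such as LYVE1, TIMD4 and the mannose receptor, and clear dying cells and debris. Monocytes enter the injured heart through the receptor CCR2, which senses the chemokines CCL2 and CCL7, and mature into macrophages that make galectin-3, TREM2 or osteopontin. Cytokines such as IL-1 beta, TNF and IL-6 are made during this recruitment, by macrophages and by other cells of the heart. In a bulk sample, fewer cells of a type and less RNA per cell cannot be told apart, and several of these genes are also used outside macrophages (Lyve1 by lymphatic endothelium, Ccl2, Il6 and Spp1 by fibroblasts and other cells).

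Values are CPM, counts scaled to library size (with TMM factors), given for mice 1 to 4 of each group in that order. Total counts per library ran from 7361063 to 11497836 in TAC-BacNav, from 8275608 to 9813733 in TAC-mScarlet and from 5360869 to 7837342 in Sham-NT. Summed ventricular cardiomyocyte markers lay between 65961 and 87494 CPM in TAC-BacNav, between 55410 and 73040 CPM in TAC-mScarlet and between 87072 and 95067 CPM in Sham-NT. Of 13 T and NK cell markers, 5 were in the count tables and none passed the filter. Their sum lay between 1.86 and 6.80 CPM in TAC-BacNav, between 1.74 and 6.13 CPM in TAC-mScarlet and between 1.12 and 4.29 CPM in Sham-NT.

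Library TAC-mScarlet 3 stood apart. It was the highest of its group in 26 of the 35 tested members and the lowest in 0, and its fibroblast markers summed to 6424 CPM, against 1986 to 2857 CPM in the other TAC-mScarlet libraries. Sham-NT 1 was the highest of its group in 24 of the 35. The libraries also split by the immediate early gene Fos, which many stimuli switch on within minutes: TAC-BacNav 1 and 2, TAC-mScarlet 1, 2 and 3 and Sham-NT 1 and 2 had 54.9 to 301 CPM, and the other 5 libraries had 1.60 to 7.89 CPM.

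In TAC-mScarlet against Sham-NT, 6 of the 35 members were higher and 0 were lower, at an adjusted p below 0.05 (quasi-likelihood test of edgeR, Benjamini-Hochberg over all 13910 genes). The 6 were Adgre1, Fcgr1, Lyz2, Cd14, Mrc1 and Csf1r, and they make up 17.1% of the members tested, against 2.65% of all genes called higher, 2.52% called lower and 5.17% called in either direction. They are the genes of 5 surface receptors, Mrc1 of the resident type among them, and of the secreted enzyme lysozyme. Log2 fold changes were above 0 for 32 of the 35 members, against 50.5% of all genes, and their median was 0.64, against 0.0044 over all genes. At an unadjusted p below 0.05 there were 19 members, or 54.3%, against 22.2% of all genes.

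The calls rest on few libraries. Without TAC-mScarlet 3, 0 members were called, against 0.692% of all genes, and the members' median was 0.35. Without Sham-NT 2 it was 0, against 0.0991% of all genes, and without Sham-NT 4 also 0, against 0.141%, while the members' medians were 0.59 and 0.65. Without Sham-NT 3 it was 3 of 36 members, against 7.45% of all genes. Without Sham-NT 1 it was 4, against 1.81%, with a median of 0.83; Lyz2 and Csf1r were then not called. DESeq2 called 11 members, adding Ccr2, Cx3cr1, Ly86, Cd53 and Il6, against 9.86% of all genes in either direction.

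In TAC-BacNav against TAC-mScarlet, 0 of the 35 members were called, and 0 of the 13910 genes (0%, higher and lower alike). The smallest adjusted p over all genes was 0.780. At an unadjusted p below 0.05 there was 1 member, Cd14, against 3.36% of all genes. DESeq2 also called 0 members, with 5 genes called in all (0.0359%), and limma-voom called 0 of either. The members' median was -0.14, with 12 of 35 above 0. Without TAC-mScarlet 3 it was 0.13, with 28 of 35 above 0, so the sign of the median turned on that library.

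In TAC-BacNav against Sham-NT, 0 of the 35 members were called, against 2 of the 13910 genes (0.0144%, both higher). Log2 fold changes were above 0 for 34 of 35 members, and their median was 0.49, against 0.0079 over all genes. At an unadjusted p below 0.05 there were 9 members, or 25.7%, against 11.1% of all genes. DESeq2 called 1 member, Ccr2, against 0.273% of all genes. This comparison shares its Sham-NT libraries with that of TAC-mScarlet, so these comparisons are not independent of each other.

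Groups whose libraries do not overlap at all can be counted with no model. In TAC-mScarlet against Sham-NT, every library was higher for 5 members, Adgre1, Fcgr1, Lyz2, Cd68 and Il6, or 14.3%, against 6.33% of all genes, and 0 members were lower throughout, against 6.78%. In TAC-BacNav against TAC-mScarlet, 0 members were higher throughout, against 0.762% of genes, and 1, Cd14, was lower throughout, against 0.935%. In TAC-BacNav against Sham-NT, 6 members were higher throughout, Mrc1, Ccr2, Adgre1, Csf1r, Lyz2 and Ccl8, or 17.1%, against 3.08% of genes, and 0 were lower, against 2.37%.

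**Figure D1:**
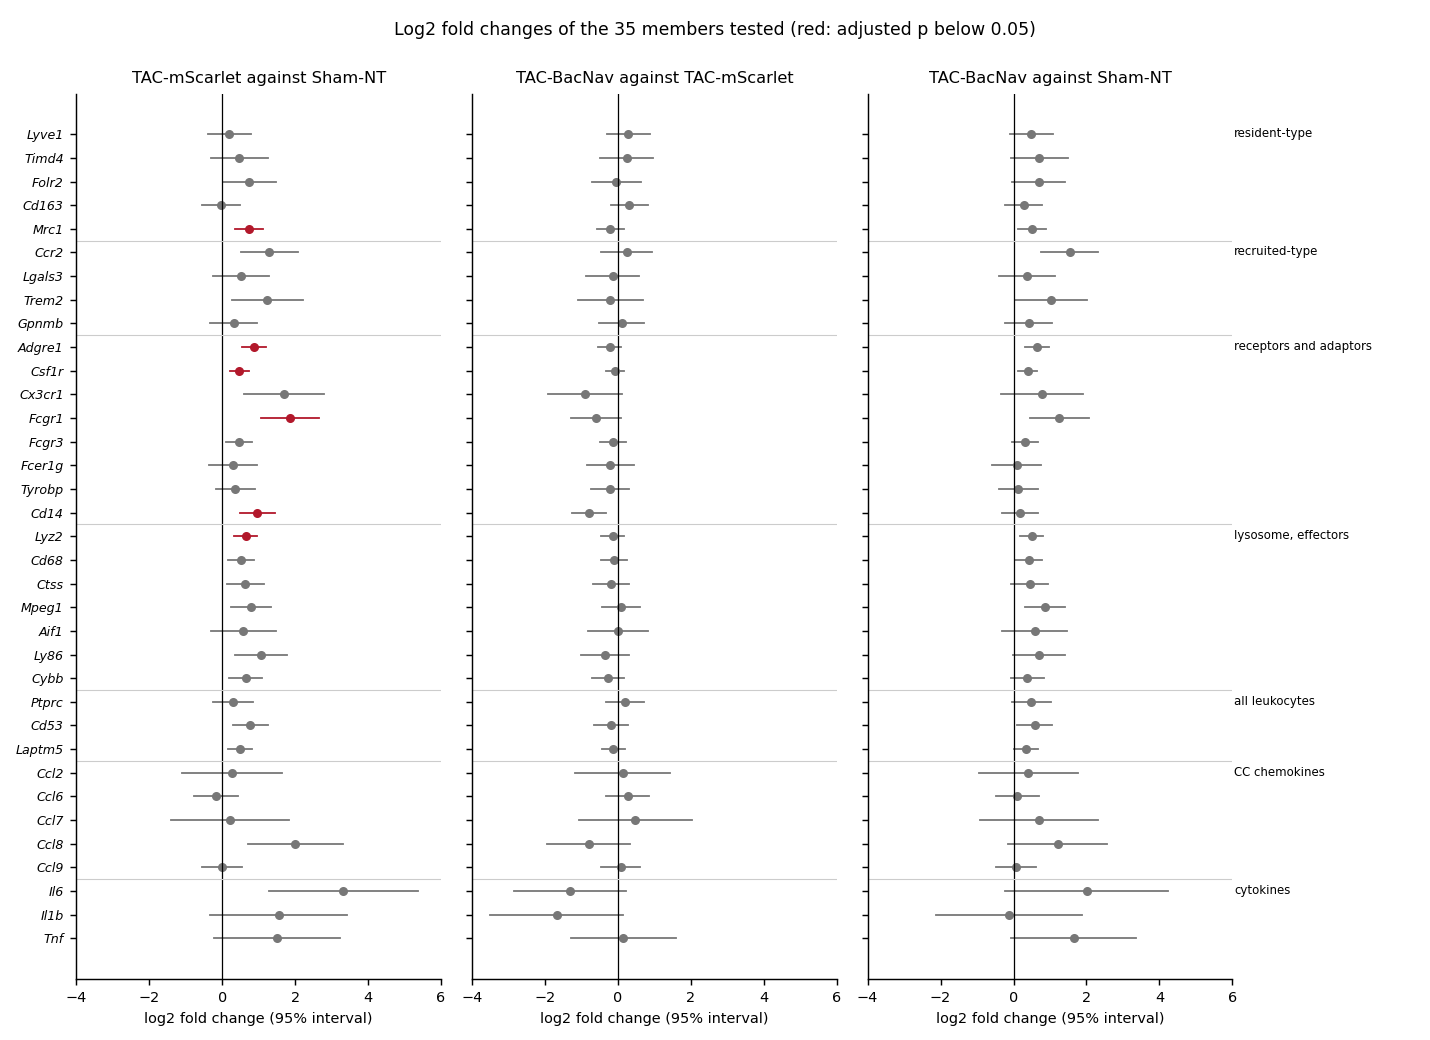
Log2 fold changes of the 35 tested members with 95% intervals in 3 comparisons, ordered by role; red marks an adjusted p below 0.05. The 6 red points are all in TAC-mScarlet against Sham-NT, where 32 of 35 points lie above 0, and in TAC-BacNav against TAC-mScarlet 12 of 35 do.

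Receptors and adaptors shared by most macrophages held 4 of the 6 calls, out of 8 genes tested. Adgre1 (ENSMUSG00000004730.15) encodes the macrophage surface protein F4/80 and lies on chromosome 17, 57358691 to 57483527 (GRCm38). Adgre1 had 18.8, 20.6, 19.6 and 21.7 CPM in TAC-BacNav ventricles, 21.7, 23.3, 30.4 and 19.1 CPM in TAC-mScarlet ventricles and 16.7, 11.5, 12.6 and 11.4 CPM in Sham-NT ventricles. Every library with a constriction lay above every Sham-NT library, and the TAC-BacNav libraries were closely spaced. Its change, as log2 fold, was 0.87 ± 0.17 (SE; 1.82-fold; adjusted p = 0.0204) in TAC-mScarlet against Sham-NT, 0.64 ± 0.17 (adjusted p = 0.345) in TAC-BacNav against Sham-NT and -0.23 ± 0.16 (95% interval -0.54 to 0.09) in TAC-BacNav against TAC-mScarlet. Without TAC-mScarlet 3 the first of these was 0.72 with an adjusted p of 0.0541.

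Fcgr1 (ENSMUSG00000015947.10; chromosome 3, 96282909 to 96293969) encodes the high-affinity receptor for IgG, CD64. Fcgr1 had 4.19, 4.95, 3.20 and 5.92 CPM in TAC-BacNav ventricles, 5.97, 4.19, 12.5 and 5.22 CPM in TAC-mScarlet ventricles and 3.57, 1.56, 1.29 and 1.44 CPM in Sham-NT ventricles. Sham-NT 2, 3 and 4 held 8 to 10 counts, and Sham-NT 1 stood above them at 18 counts. The gene rose 3.64-fold in TAC-mScarlet against Sham-NT (log2 1.86 ± 0.40, adjusted p = 0.0245), and the value was 1.41 without TAC-mScarlet 3 (adjusted p = 0.0781). Its difference in TAC-BacNav against TAC-mScarlet was -0.60 ± 0.35 (95% interval -1.30 to 0.09), and 1.26 ± 0.41 in TAC-BacNav against Sham-NT (adjusted p = 0.367).

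Cd14 (ENSMUSG00000051439.7; chromosome 18, 36725067 to 36726798) encodes the co-receptor for bacterial lipopolysaccharide. Cd14 had 10.00, 12.4, 10.3 and 9.21 CPM in TAC-BacNav ventricles, 20.8, 14.4, 23.4 and 13.5 CPM in TAC-mScarlet ventricles and 14.7, 7.61, 6.47 and 8.65 CPM in Sham-NT ventricles. All 4 TAC-BacNav libraries lay below all 4 TAC-mScarlet libraries, and Sham-NT 1 alone among the Sham-NT libraries lay within the TAC-mScarlet range. The gene rose in TAC-mScarlet against Sham-NT (0.96 ± 0.25, 1.95-fold, adjusted p = 0.0371; 0.81 without TAC-mScarlet 3, adjusted p = 0.123). It had the smallest p of all members in TAC-BacNav against TAC-mScarlet, at -0.79 ± 0.24 (0.58-fold, 95% interval -1.25 to -0.32), which did not pass (adjusted p = 0.9995). Without TAC-mScarlet 3 that difference was -0.63, not called. In TAC-BacNav against Sham-NT it was 0.18 ± 0.25 (95% interval -0.32 to 0.67).

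Csf1r (ENSMUSG00000024621.16; chromosome 18, 61100598 to 61132149) encodes the receptor for the macrophage growth factors CSF1 and IL-34. Csf1r had 54.1, 61.5, 52.4 and 53.6 CPM in TAC-BacNav ventricles, 55.7, 59.3, 73.2 and 47.0 CPM in TAC-mScarlet ventricles and 47.4, 40.2, 40.1 and 42.1 CPM in Sham-NT ventricles. Only TAC-mScarlet 4 fell below Sham-NT 1, while all TAC-BacNav libraries lay above all Sham-NT libraries. The change was 0.47 ± 0.13 in TAC-mScarlet against Sham-NT (adjusted p = 0.0484), 0.38 ± 0.13 in TAC-BacNav against Sham-NT (adjusted p = 0.367) and -0.09 ± 0.13 in TAC-BacNav against TAC-mScarlet (95% interval -0.34 to 0.17). Of its exon bases, 15.1% are shared with Hmgxb3 on the other strand. Csf1r was called in 1 of the 12 fits that left out 1 library.

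The other 4 genes of this role did not pass. Cx3cr1, the receptor of the chemokine CX3CL1 and a gene of monocytes and some resident macrophages, had 3.49, 8.69, 7.60 and 7.23 CPM in TAC-BacNav ventricles, 16.4, 5.21, 23.6 and 5.45 CPM in TAC-mScarlet ventricles and 6.74, 3.90, 1.16 and 4.33 CPM in Sham-NT ventricles. Its TAC-mScarlet libraries split into 2 high and 2 low ones, and all groups overlapped. Its changes were 1.70 ± 0.56 in TAC-mScarlet against Sham-NT (adjusted p = 0.0973) and -0.91 ± 0.52 in TAC-BacNav against TAC-mScarlet (95% interval -1.92 to 0.10). Fcgr3, a low-affinity IgG receptor, Fcer1g, the signalling chain it shares with other Fc receptors, and Tyrobp, the adaptor of TREM2, had log2 values of 0.45, 0.30 and 0.36 in TAC-mScarlet against Sham-NT. All 8 genes of the role were above 0 in TAC-mScarlet against Sham-NT (median 0.67) and below 0 in TAC-BacNav against TAC-mScarlet (median -0.23). Without TAC-mScarlet 3, 7 of 8 were still above 0 in TAC-mScarlet against Sham-NT (median 0.53). In TAC-BacNav against TAC-mScarlet, 4 of 8 were then above 0 (median -0.04), so the shared sign there rested on that library.

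**Figure D2:**
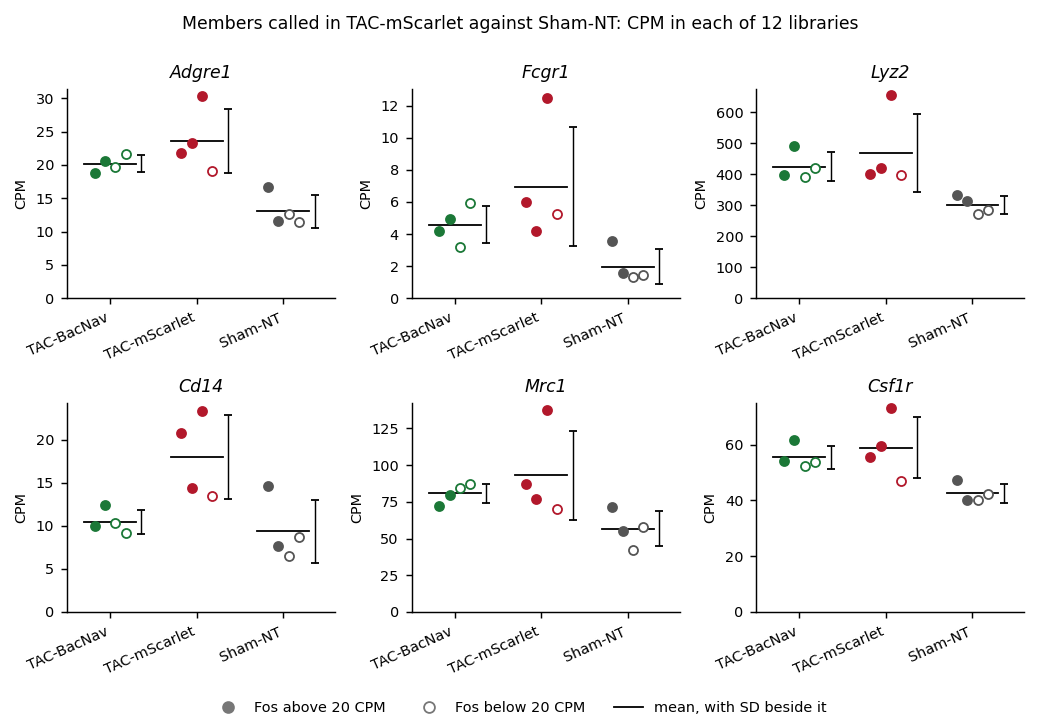
CPM of the 6 members called in TAC-mScarlet against Sham-NT, one point per library, filled where Fos was above 20 CPM; black lines are means with the SD beside them (n = 4). For Adgre1, Fcgr1 and Lyz2 every TAC-mScarlet library lies above every Sham-NT library, and TAC-mScarlet 3 is the highest point of all 12 in each panel.

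Resident-type genes were Lyve1, Timd4, Folr2, Cd163 and Mrc1, and 1 of these 5, Mrc1, was called in TAC-mScarlet against Sham-NT. Mrc1 (ENSMUSG00000026712.3; chromosome 2, 14229392 to 14332057), the mannose receptor CD206, had 71.8, 80.0, 84.4 and 87.0 CPM in TAC-BacNav ventricles, 87.3, 76.8, 138 and 70.3 CPM in TAC-mScarlet ventricles and 71.4, 55.0, 42.1 and 58.0 CPM in Sham-NT ventricles. TAC-mScarlet 3 was far above the rest, and all TAC-BacNav libraries lay above all Sham-NT libraries, if narrowly for Sham-NT 1. Its change was 0.72 ± 0.20 in TAC-mScarlet against Sham-NT (1.65-fold, adjusted p = 0.0455; 0.47 without TAC-mScarlet 3, where it was not called), 0.52 ± 0.20 in TAC-BacNav against Sham-NT (adjusted p = 0.394) and -0.20 ± 0.19 in TAC-BacNav against TAC-mScarlet (95% interval -0.58 to 0.17).

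Lyve1, a hyaluronan receptor of long-lived resident macrophages and of lymphatic vessels, had 39.6, 37.3, 51.8 and 81.2 CPM in TAC-BacNav ventricles, 34.6, 32.2, 46.1 and 59.4 CPM in TAC-mScarlet ventricles and 28.3, 23.6, 45.7 and 51.8 CPM in Sham-NT ventricles. The groups overlapped, and the spread within each was wider than the gap between their means, since mice 3 and 4 were above mice 1 and 2 in all groups. Lyve1 differed by 0.20 ± 0.30 in TAC-mScarlet against Sham-NT (95% interval -0.39 to 0.79), by 0.29 ± 0.30 in TAC-BacNav against TAC-mScarlet (-0.29 to 0.87) and by 0.49 ± 0.30 in TAC-BacNav against Sham-NT (-0.10 to 1.08).

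Timd4, the receptor through which macrophages bind phosphatidylserine on dying cells, had 4.88, 7.84, 3.74 and 5.84 CPM in TAC-BacNav ventricles, 6.69, 4.64, 6.04 and 1.51 CPM in TAC-mScarlet ventricles and 2.58, 4.29, 2.20 and 4.65 CPM in Sham-NT ventricles. TAC-mScarlet 4 was the lowest of all 12 libraries. The interval was -0.31 to 1.26 in TAC-mScarlet against Sham-NT, -0.49 to 0.97 in TAC-BacNav against TAC-mScarlet and -0.07 to 1.49 in TAC-BacNav against Sham-NT.

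Folr2, a folate receptor of resident macrophages, had 5.46, 3.86, 1.73 and 4.60 CPM in TAC-BacNav ventricles, 4.30, 4.53, 4.70 and 2.78 CPM in TAC-mScarlet ventricles and 2.97, 1.17, 3.24 and 2.24 CPM in Sham-NT ventricles. The groups overlapped at 6 to 56 counts per library. Of its exon bases, 63.1% are shared with Gm10602 on the other strand, whose reads cannot be told apart here. Its change was 0.74 ± 0.37 in TAC-mScarlet against Sham-NT (adjusted p = 0.252), -0.05 ± 0.34 (95% interval -0.72 to 0.62) in TAC-BacNav against TAC-mScarlet and 0.69 ± 0.37 (adjusted p = 0.492) in TAC-BacNav against Sham-NT.

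Cd163, the scavenger receptor for haemoglobin bound to haptoglobin, had 47.4, 30.0, 50.7 and 68.1 CPM in TAC-BacNav ventricles, 29.3, 46.5, 39.2 and 42.9 CPM in TAC-mScarlet ventricles and 23.6, 34.9, 56.2 and 46.8 CPM in Sham-NT ventricles. The group means were 49.1 ± 15.6, 39.5 ± 7.44 and 40.4 ± 14.2 CPM (SD, n = 4 each) in that order of groups. Its change in TAC-mScarlet against Sham-NT was -0.04 ± 0.26 (95% interval -0.56 to 0.48), and that sign turned with library size scaling. It was 0.32 ± 0.26 (-0.19 to 0.83) in TAC-BacNav against TAC-mScarlet.

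Recruited-type genes were Ccr2, Lgals3, Trem2, Spp1 and Gpnmb, and 0 of the 4 tested were called in any comparison. Ccr2 (ENSMUSG00000049103.14; chromosome 9, 124101950 to 124113557), the receptor that brings monocytes out of the marrow and into tissue, had 9.07, 13.2, 9.47 and 15.2 CPM in TAC-BacNav ventricles, 8.36, 7.70, 19.3 and 4.06 CPM in TAC-mScarlet ventricles and 3.37, 4.49, 2.98 and 5.45 CPM in Sham-NT ventricles. Every TAC-BacNav library was above every Sham-NT library, whereas TAC-mScarlet 4 lay among the Sham-NT libraries. Ccr2 had the smallest p of all members in TAC-BacNav against Sham-NT, at 1.53 ± 0.40 (2.90-fold, 95% interval 0.76 to 2.31, adjusted p = 0.345 by edgeR's fit). DESeq2 called it there (1.53, adjusted p = 0.0447).

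In TAC-mScarlet against Sham-NT, Ccr2 differed by 1.29 ± 0.40 (adjusted p = 0.072; 0.72 without TAC-mScarlet 3, adjusted p = 0.253). In TAC-BacNav against TAC-mScarlet it differed by 0.25 ± 0.36 (95% interval -0.45 to 0.95), and by 0.81 ± 0.29 without TAC-mScarlet 3, not called.

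Lgals3, which encodes the lectin galectin-3, had 7.56, 11.0, 16.1 and 10.2 CPM in TAC-BacNav ventricles, 7.29, 7.59, 21.3 and 13.0 CPM in TAC-mScarlet ventricles and 15.9, 7.42, 5.82 and 6.09 CPM in Sham-NT ventricles. The high library of Sham-NT, mouse 1, reached the upper part of both other groups. Its interval was -0.25 to 1.28 in TAC-mScarlet against Sham-NT (0.51, and 0.10 without TAC-mScarlet 3), -0.88 to 0.59 in TAC-BacNav against TAC-mScarlet and -0.40 to 1.14 in TAC-BacNav against Sham-NT.

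Trem2, a lipid-sensing receptor of macrophages that signals through TYROBP, had 3.26, 7.72, 6.00 and 3.95 CPM in TAC-BacNav ventricles, 6.21, 2.83, 12.3 and 2.44 CPM in TAC-mScarlet ventricles and 3.77, 3.12, 1.42 and 2.08 CPM in Sham-NT ventricles. The high values were in TAC-mScarlet 3 and TAC-BacNav 2, and the groups overlapped. Its change was 1.24 ± 0.50 in TAC-mScarlet against Sham-NT (adjusted p = 0.160; 0.59 without TAC-mScarlet 3), 1.03 ± 0.51 in TAC-BacNav against Sham-NT (adjusted p = 0.464) and -0.20 ± 0.45 in TAC-BacNav against TAC-mScarlet.

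Spp1, which encodes osteopontin, was too sparse to be tested. It had 4, 9, 21 and 9 counts in TAC-BacNav libraries, 3, 8, 92 and 32 counts in TAC-mScarlet libraries and 0, 0, 3 and 6 counts in Sham-NT libraries. TAC-mScarlet 3 and 4 held most of its reads. With no filter on low counts its change was 3.20 ± 1.05 in TAC-mScarlet against Sham-NT (adjusted p = 0.0954) and -1.49 ± 0.84 in TAC-BacNav against TAC-mScarlet.

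Gpnmb, a membrane glycoprotein of lipid-laden macrophages, had 2.67, 2.90, 3.47 and 4.11 CPM in TAC-BacNav ventricles, 2.27, 2.27, 4.12 and 3.60 CPM in TAC-mScarlet ventricles and 3.37, 1.37, 2.85 and 2.24 CPM in Sham-NT ventricles. The groups overlapped, and no comparison had an absolute log2 value above that of TAC-BacNav against Sham-NT, 0.42 ± 0.33 (95% interval -0.23 to 1.06).

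Set side by side, the resident-type genes summed to 169, 159, 192 and 247 CPM in TAC-BacNav ventricles, 162, 165, 234 and 177 CPM in TAC-mScarlet ventricles and 129, 119, 149 and 163 CPM in Sham-NT ventricles. This sum is carried by Mrc1, Lyve1 and Cd163. The recruited-type genes summed to 23.0, 35.8, 37.9 and 34.2 CPM in TAC-BacNav ventricles, 24.5, 21.3, 65.7 and 26.8 CPM in TAC-mScarlet ventricles and 26.4, 16.4, 13.5 and 16.8 CPM in Sham-NT ventricles. The groups overlapped for both sums. Sham-NT 4 was above TAC-BacNav 2 and TAC-mScarlet 1 in the resident-type sum. Sham-NT 1 was above TAC-BacNav 1 and TAC-mScarlet 1 and 2 in the recruited-type sum.

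Recruited-type genes made up 12.0%, 18.4%, 16.5% and 12.2% of both sums together in TAC-BacNav, 13.1%, 11.4%, 22.0% and 13.2% in TAC-mScarlet and 17.0%, 12.1%, 8.27% and 9.33% in Sham-NT. The shares overlapped between all groups. Ccr2 as a percentage of the Csf1r CPM of the same library was 16.8, 21.4, 18.1 and 28.4 in TAC-BacNav, 15.0, 13.0, 26.3 and 8.64 in TAC-mScarlet and 7.11, 11.2, 7.42 and 12.9 in Sham-NT. By that ratio, every TAC-BacNav library lay above every Sham-NT library, as for Ccr2 itself, whose values the ratio uses. The same percentage for Lyve1 overlapped, at 60.6 to 152 in TAC-BacNav and 58.7 to 123 in Sham-NT. That for Cd14 also overlapped, at 17.2 to 20.2 and 16.1 to 31.0. The share of all genes that separate by such a ratio was not counted. The median log2 fold change was 0.47 for the 5 resident-type genes and 0.87 for the 4 tested recruited-type genes in TAC-mScarlet against Sham-NT, 0.24 and -0.02 in TAC-BacNav against TAC-mScarlet, and 0.52 and 0.73 when TAC-BacNav was set against Sham-NT. Without TAC-mScarlet 3 the first pair was 0.33 and 0.36, and the second 0.32 and 0.36. The difference between the 2 kinds of genes was not tested.

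**Figure D3:**
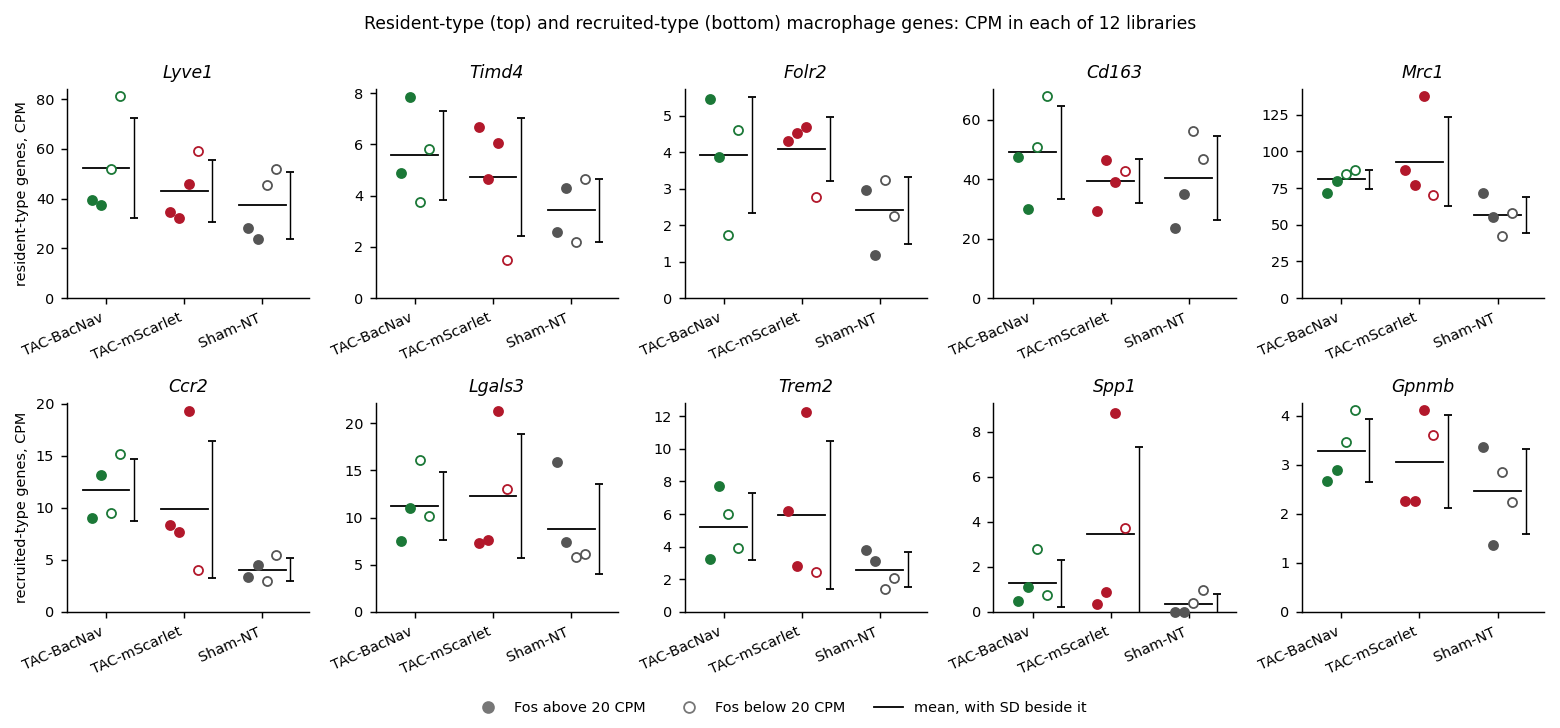
CPM of 5 resident-type genes (top) and 5 recruited-type genes (bottom), one point per library, filled where Fos was above 20 CPM; black lines are means with the SD beside them (n = 4), and SD bars stop at 0. Ccr2 is above all Sham-NT points in all 4 TAC-BacNav points, and TAC-mScarlet 3 is the top point of its group in Mrc1, Folr2 and all 5 recruited-type genes.

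Lysosomal and effector genes numbered 7, with 1 call in TAC-mScarlet against Sham-NT. Lyz2 (ENSMUSG00000069516.8; chromosome 10, 117277331 to 117282321), the lysozyme of myeloid cells, had 396, 492, 389.8 and 420.4 CPM in TAC-BacNav ventricles, 399.6, 421, 655 and 396 CPM in TAC-mScarlet ventricles and 333, 315, 270.0 and 286 CPM in Sham-NT ventricles. Both groups with a constriction lay wholly above Sham-NT, and all TAC-mScarlet libraries but the third were close to the TAC-BacNav ones. Its change was 0.64 ± 0.16 in TAC-mScarlet against Sham-NT (1.56-fold, adjusted p = 0.0343; 0.43 without TAC-mScarlet 3, adjusted p = 0.0985), 0.50 ± 0.16 in TAC-BacNav against Sham-NT (adjusted p = 0.367) and -0.14 ± 0.16 in TAC-BacNav against TAC-mScarlet (95% interval -0.45 to 0.17).

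Lyz2 was also the member with the highest level per kilobase of exon, at 323 ± 35.8, 356 ± 95.1 and 229 ± 21.5 CPM per kb (SD, n = 4 each) in TAC-BacNav, TAC-mScarlet and Sham-NT. The near copy Lyz1 held 7 to 56 counts per library, against 1612 to 6836 for Lyz2. In Sham-NT the next in level per kb were Ccl6 (29.6 ± 3.50), Tyrobp (29.3 ± 11.3) and Ctss (23.0 ± 3.43), whose spreads overlap, and the lowest were Spp1 (0.205 ± 0.276) and Il6 (0.122 ± 0.140).

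The other 6 effector genes were Cd68, a lysosomal membrane glycoprotein, Ctss, the protease cathepsin S, Mpeg1, the pore-forming perforin-2, Aif1, an actin-binding protein of macrophages, Ly86, a partner of the receptor RP105, and Cybb, the catalytic subunit of the phagocyte NADPH oxidase. Their log2 values ran from 0.51 (Cd68) to 1.06 (Ly86) in TAC-mScarlet against Sham-NT, and none passed. Cd68 had 15.8, 14.5, 10.3 and 13.3 CPM in TAC-BacNav ventricles, 14.0, 12.1, 18.9 and 12.8 CPM in TAC-mScarlet ventricles and 11.7, 9.76, 8.93 and 10.3 CPM in Sham-NT ventricles. All its TAC-mScarlet libraries lay above Sham-NT (0.51 ± 0.19, adjusted p = 0.116). Mpeg1 had 20.6, 41.6, 35.2 and 32.4 CPM in TAC-BacNav ventricles, 25.0, 30.7, 47.3 and 19.9 CPM in TAC-mScarlet ventricles and 22.8, 21.3, 13.8 and 13.5 CPM in Sham-NT ventricles. TAC-BacNav 1 was the one TAC-BacNav library to overlap Sham-NT (0.87 ± 0.28, adjusted p = 0.367). The 7 genes lay between -0.35 (Ly86) and 0.07 (Mpeg1) in TAC-BacNav against TAC-mScarlet. With TAC-mScarlet 3 left out, the TAC-mScarlet against Sham-NT median of the 7 was 0.39 rather than 0.64 (Ly86 0.61, Mpeg1 0.51, Ctss 0.29, Aif1 0.14), and 6 of 7 were above 0 in TAC-BacNav against TAC-mScarlet.

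Genes of all leukocytes were Ptprc, which encodes CD45, the tetraspanin gene Cd53 and Laptm5, a lysosomal protein of blood cells. None of the 3 passed. Cd53 had 12.2, 19.1, 16.5 and 18.7 CPM in TAC-BacNav ventricles, 15.5, 13.9, 30.0 and 16.4 CPM in TAC-mScarlet ventricles and 11.9, 14.3, 9.71 and 8.97 CPM in Sham-NT ventricles. Sham-NT 2 lay among the other groups, and Cd53 differed by 0.77 ± 0.24 in TAC-mScarlet against Sham-NT (adjusted p = 0.0755). Ptprc and Laptm5 had log2 values of 0.29 ± 0.28 and 0.48 ± 0.17 there (adjusted p = 0.583 and 0.103). Without TAC-mScarlet 3 the values were 0.45 for Cd53, 0.02 for Ptprc and 0.33 for Laptm5.

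The 5 CC chemokine genes lie in 2 groups on chromosome 11. Ccl2, Ccl7 and Ccl8, the monocyte chemoattractants, follow each other on the plus strand (Ccl2 at 82035571 to 82037453, with gaps of 8.26 kb to Ccl7 and then 67.7 kb to Ccl8), and Ccl9 and Ccl6 are 9.25 kb apart on the minus strand. None of the 5 passed in any comparison. Ccl2 had 19.8, 17.1, 3.60 and 4.11 CPM in TAC-BacNav ventricles, 16.2, 9.63, 10.4 and 4.41 CPM in TAC-mScarlet ventricles and 17.4, 10.2, 3.49 and 3.36 CPM in Sham-NT ventricles. Ccl7 had 31.3, 27.9, 2.94 and 4.93 CPM in TAC-BacNav ventricles, 17.6, 12.8, 12.9 and 4.52 CPM in TAC-mScarlet ventricles and 21.4, 12.7, 3.62 and 4.65 CPM in Sham-NT ventricles. Both genes were high in the same 7 libraries, those with high Fos, and low in the other 5, in every group.

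The intervals of Ccl2 and Ccl7 were therefore wide. Ccl2 differed by 0.28 ± 0.70 in TAC-mScarlet against Sham-NT (95% interval -1.09 to 1.64) and by 0.13 ± 0.67 in TAC-BacNav against TAC-mScarlet (-1.18 to 1.44). With a term for Fos in the model the first of these was -0.07 ± 0.24, and for Ccl7 it was -0.21 ± 0.26, against 0.21 ± 0.83 without that term. The sign of both thus turned with the term, with neither past the threshold. Among the libraries of high Fos alone, both TAC-BacNav values of Ccl7 were above all 3 TAC-mScarlet values (1.03 ± 0.22, adjusted p = 0.456). Ccl2 and Tnf were ordered likewise, and other members the opposite way. The share of all genes so ordered was not counted.

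Ccl8 had 2.21, 3.62, 3.74 and 2.38 CPM in TAC-BacNav ventricles, 2.03, 2.38, 14.2 and 1.74 CPM in TAC-mScarlet ventricles and 1.59, 1.95, 0.776 and 0.961 CPM in Sham-NT ventricles. TAC-mScarlet 3 held 148 of its counts and the other TAC-mScarlet libraries 15 to 21. All TAC-BacNav libraries lay above all Sham-NT libraries (1.21 ± 0.69, adjusted p = 0.520). The change in TAC-mScarlet against Sham-NT, 2.00 ± 0.67 (adjusted p = 0.0923), was 0.67 without TAC-mScarlet 3.

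Ccl6 and Ccl9 did not follow Ccl2. Ccl6, a chemokine known from rodents, had 34.2, 44.2, 65.9 and 83.4 CPM in TAC-BacNav ventricles, 32.7, 31.8, 48.0 and 76.9 CPM in TAC-mScarlet ventricles and 49.0, 53.3, 48.4 and 62.0 CPM in Sham-NT ventricles. Ccl9 had 30.1, 35.7, 40.7 and 63.0 CPM in TAC-BacNav ventricles, 32.0, 22.8, 45.2 and 60.9 CPM in TAC-mScarlet ventricles and 35.5, 35.9, 43.0 and 47.3 CPM in Sham-NT ventricles. Mouse 4 of each group was the highest for both genes, and the groups overlapped throughout. Ccl6 differed by -0.17 ± 0.30 in TAC-mScarlet against Sham-NT (95% interval -0.76 to 0.43) and Ccl9 by -0.01 ± 0.28 (-0.55 to 0.53), and the sign of Ccl9 turned with library size scaling.

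Inflammatory cytokine genes were Il6, Il1b and Tnf, and none of the 3 passed. Il1b (ENSMUSG00000027398.13; chromosome 2, 129364570 to 129371139), the gene of interleukin-1 beta, had 7.91, 5.79, 1.07 and 0.987 CPM in TAC-BacNav ventricles, 19.1, 12.1, 16.9 and 1.74 CPM in TAC-mScarlet ventricles and 10.1, 6.25, 0.906 and 0.641 CPM in Sham-NT ventricles. Among the libraries with high Fos, both TAC-BacNav values were below all 3 TAC-mScarlet values. The same order held for Adgre1, Cd14 and Cybb, and the reverse order for Ccl2, Ccl7 and Tnf. The share of all genes ordered in either way was not counted. Its change was 1.55 ± 0.96 in TAC-mScarlet against Sham-NT (adjusted p = 0.387) and -1.68 ± 0.93 in TAC-BacNav against TAC-mScarlet (95% interval -3.50 to 0.15). With a term for Fos, Il1b was called in TAC-mScarlet against Sham-NT (1.03 ± 0.26, adjusted p = 0.0190), and in TAC-BacNav against TAC-mScarlet it was -1.1 ± 0.25 (adjusted p = 0.533).

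Tnf (ENSMUSG00000024401.14; chromosome 17, 35199381 to 35202007), the gene of tumour necrosis factor, had 6.39, 4.10, 0.133 and 0.987 CPM in TAC-BacNav ventricles, 4.06, 2.38, 3.26 and 0.696 CPM in TAC-mScarlet ventricles and 1.59, 1.56, 0.388 and 0.321 CPM in Sham-NT ventricles. In each group the libraries of low Fos were the lowest, with 1 to 12 counts. Tnf differed by 1.51 ± 0.88 in TAC-mScarlet against Sham-NT (adjusted p = 0.340) and by 0.15 ± 0.74 in TAC-BacNav against TAC-mScarlet (95% interval -1.29 to 1.59).

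Il6 (ENSMUSG00000025746.11; chromosome 5, 30013114 to 30019981) had 13, 17, 3 and 5 counts in TAC-BacNav libraries, 16, 7, 75 and 6 counts in TAC-mScarlet libraries and 3, 3, 0 and 0 counts in Sham-NT libraries. In CPM, every TAC-mScarlet library was above every Sham-NT library, and TAC-mScarlet 3 held most reads. Il6 differed by 3.32 ± 1.04 on the log2 scale in TAC-mScarlet against Sham-NT (adjusted p = 0.0765), was called by DESeq2 (adjusted p = 0.0150) and with a term for Fos (2.83 ± 0.80, adjusted p = 0.0334), and was 2.07 without TAC-mScarlet 3. Il6 differed by -1.32 ± 0.78 (95% interval -2.85 to 0.21) in TAC-BacNav against TAC-mScarlet.

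Over all 12 libraries, 4 of the 36 members were higher in each of the 7 libraries with high Fos than in each of the 5 with low Fos. Ccl2 ran from 9.63 to 19.8 CPM in the 7 and from 3.36 to 4.41 CPM in the 5. Ccl7 ran from 12.7 to 31.3 CPM against 2.94 to 4.93 CPM. Il1b ran from 5.79 to 19.1 CPM against 0.641 to 1.74 CPM, and Tnf from 1.56 to 6.39 CPM against 0.133 to 0.987 CPM. The other 32 members overlapped, among them Ccl6 (31.8 to 53.3 CPM against 48.4 to 83.4 CPM) and Ccl9 (22.8 to 45.2 CPM against 40.7 to 63.0 CPM), which leaned the other way. The resident-type genes Lyve1 (23.6 to 46.1 CPM against 45.7 to 81.2 CPM) and Cd163 (23.6 to 47.4 CPM against 42.9 to 68.1 CPM) leaned as Ccl6 did. The share of all genes split in this way was not counted, so the 4 of 36 have no background beside them. These sides were defined from the data and are described with no test.

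Among genes outside the members, the neutrophil chemokine gene Cxcl1 (26.4 to 49.5 CPM against 1.44 to 4.76 CPM) and the neutrophil marker S100a9 (2.15 to 31.8 CPM against 0 to 1.20 CPM) were split in the same way. So were 4 of 6 mesothelial markers (Msln, Upk3b, Lrrn4 and Upk1b), genes of the layer that covers the heart: the sum of the 6 ran from 48.8 to 114 CPM in the 7 libraries and from 13.6 to 23.0 CPM in the 5. The atrial gene Myl7 and the mast cell gene Mcpt4 were split too, whereas Myl4, Nppa, Kit, Cpa3, Tpsb2 and Cma1 of the same lists overlapped. Of the other neutrophil markers, S100a8 and Mmp9 were split, and Csf3r and Retnlg overlapped. The part of these cell types in the values of Ccl2, Ccl7, Il1b and Tnf was not tested. Summed neutrophil markers (5 of 8 in the tables) ran from 3.70 to 19.6 CPM in TAC-BacNav, from 6.38 to 70.2 CPM in TAC-mScarlet and from 2.33 to 25.6 CPM in Sham-NT. With a term for Fos, 8 members were called in TAC-mScarlet against Sham-NT, the 6 above and Il1b and Il6, against 10.5% of all genes. Within the libraries of high Fos alone 0 members were called, against 4.87% of genes. Those of low Fos held only TAC-mScarlet 4 of its group, so calls within them are not given.

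**Figure D4:**
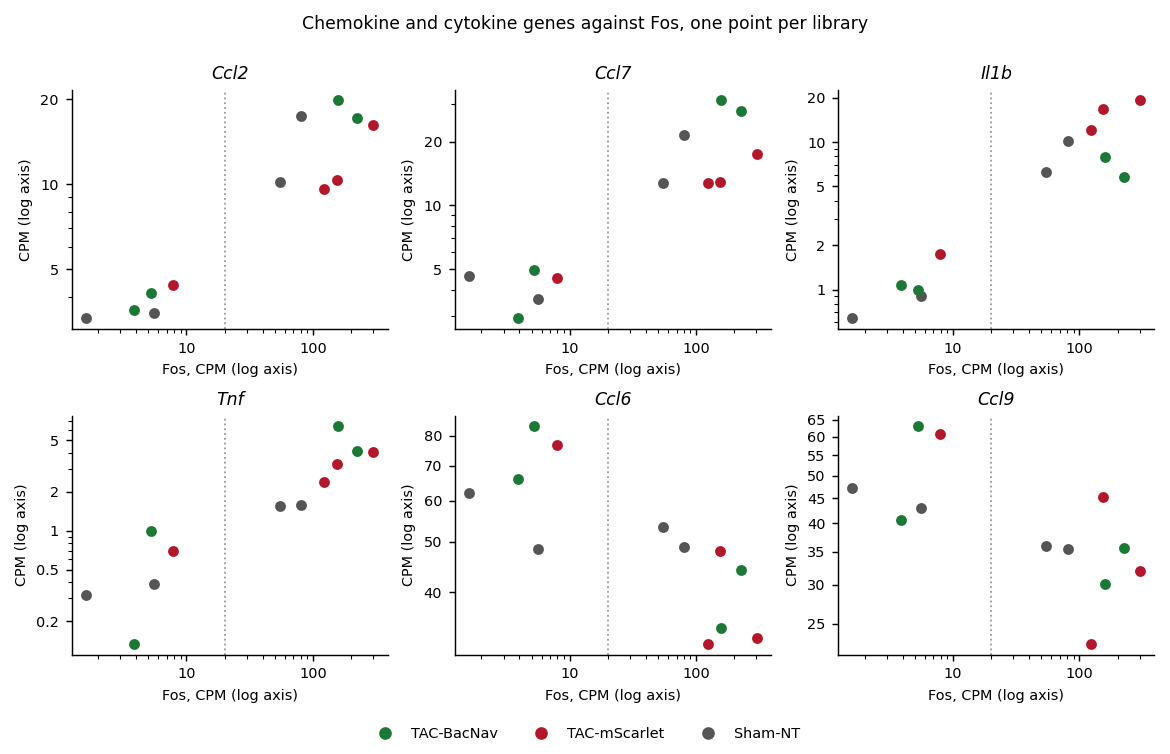
CPM of 6 chemokine and cytokine genes against Fos CPM, both on log axes, one point per library, coloured by group; the dotted line is at 20 CPM. For Ccl2, Ccl7, Il1b and Tnf all 7 points right of the line lie above all 5 points left of it, and Ccl6 and Ccl9 lean the other way.

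Other chemokine genes were counted from a list. Of 14 tested other chemokines, 1 rose and 0 fell in TAC-mScarlet against Sham-NT. It was Cx3cl1, the ligand of CX3CR1, with 10.6, 14.1, 11.2 and 13.3 CPM in TAC-BacNav ventricles, 15.5, 11.0, 21.1 and 15.9 CPM in TAC-mScarlet ventricles and 11.5, 9.96, 8.41 and 6.89 CPM in Sham-NT ventricles (0.80 ± 0.21, adjusted p = 0.0409). TAC-mScarlet 2 was below Sham-NT 1.

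Of 11 tested macrophage growth factors and cytokine receptors, 10 genes of complement C1q and MHC class II, 5 monocyte, 4 neutrophil, 5 dendritic cell and 4 B cell markers, none was called in any comparison. Of 8 fibroblast markers, 4 rose in TAC-mScarlet against Sham-NT (Postn 4.12 ± 0.83, Col1a1 1.52 ± 0.33, Col1a2 1.41 ± 0.32 and Lum 1.16 ± 0.24; adjusted p 0.0236 to 0.0301). Of 10 ventricular cardiomyocyte markers, 3 fell (Tnni3 -0.93 ± 0.18, Myh6 -0.74 ± 0.20 and Tnnt2 -0.48 ± 0.13; adjusted p 0.0204 to 0.0442). Of 3 tested atrial markers 1 rose, Nppa (4.79 ± 0.83, adjusted p = 0.0229). Their part in the macrophage values was not tested. Setting TAC-BacNav against either other group, 0 genes of these lists were called.

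Promoters are shown for the members called in TAC-mScarlet against Sham-NT or split by Fos, where RefSeq's table (GRCm38.p6) held an entry, so that the letters near their starts can be read beside their values. It held 33 promoters of 29 members, and none for Adgre1, Csf1r, Cd14, Ccl2, Ccl7, Lyve1 and Tyrobp. Each sequence is the 250 bases before the start, 5′ to 3′ on the gene's strand, and capitals mark the motifs found, on either strand: GAGGAAG, the core of the macrophage factor PU.1, TGANTCA, the site of AP-1 (the factor that holds Fos), GGG and CC 5 bases apart, a loose NF-kappaB site, and TTGCNNAA, a loose C/EBP site. The start is that of RefSeq, and the windows of Mrc1 and Lyz2 reach into the genes as placed above from GENCODE. No motif overlaps a motif of another kind in the 5 promoters shown.
Fcgr1, chr3:96293970-96294219, minus strand: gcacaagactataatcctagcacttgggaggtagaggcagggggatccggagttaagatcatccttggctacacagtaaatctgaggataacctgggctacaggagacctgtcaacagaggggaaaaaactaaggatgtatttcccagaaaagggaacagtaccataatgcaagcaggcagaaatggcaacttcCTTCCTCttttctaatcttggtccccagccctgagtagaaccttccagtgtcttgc
Mrc1, chr2:14229164-14229413, plus strand: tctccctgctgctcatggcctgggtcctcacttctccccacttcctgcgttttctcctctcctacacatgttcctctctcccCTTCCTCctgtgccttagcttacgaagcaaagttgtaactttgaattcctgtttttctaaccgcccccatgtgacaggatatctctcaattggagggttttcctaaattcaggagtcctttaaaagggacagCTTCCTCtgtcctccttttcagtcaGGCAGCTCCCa
Lyz2, chr10:117282273-117282522, minus strand: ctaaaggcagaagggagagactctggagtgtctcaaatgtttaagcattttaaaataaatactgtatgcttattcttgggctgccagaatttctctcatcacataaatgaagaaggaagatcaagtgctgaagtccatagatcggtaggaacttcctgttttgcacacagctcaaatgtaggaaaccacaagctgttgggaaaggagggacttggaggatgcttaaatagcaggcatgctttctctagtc
Il1b, chr2:129371140-129371389, minus strand: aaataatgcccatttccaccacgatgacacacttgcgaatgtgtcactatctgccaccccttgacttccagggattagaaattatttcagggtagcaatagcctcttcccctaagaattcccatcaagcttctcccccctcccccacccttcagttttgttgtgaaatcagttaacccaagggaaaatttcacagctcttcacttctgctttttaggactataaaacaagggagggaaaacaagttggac
Tnf, chr17:35202008-35202257, minus strand: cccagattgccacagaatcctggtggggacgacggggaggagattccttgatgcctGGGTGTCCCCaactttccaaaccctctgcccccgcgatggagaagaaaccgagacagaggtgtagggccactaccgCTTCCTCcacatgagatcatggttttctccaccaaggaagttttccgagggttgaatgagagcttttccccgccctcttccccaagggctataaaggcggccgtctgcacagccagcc

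The PU.1-type letters stood once in the promoter of Fcgr1, between -56 and -50 of the start, at -168 to -162 and at -36 to -30 in Mrc1, and at -118 to -112 in Tnf. Mrc1 also held NF-kappaB-type letters at -11 to -2, inside the gene as placed by GENCODE. Tnf held them at -194 to -185 on both strands. No motif was found in these windows of Lyz2 and Il1b, and the AP-1 letters were in none of the 5. Over the members, PU.1-type letters were in 9 of 33 promoters, against 10.6% of all 32851 promoters. AP-1 letters were in 6 of 33 against 6.75%, NF-kappaB-type letters in 12 of 33 against 45.8%, and C/EBP-type letters in 5 of 33 against 9.56%. Fcgr3 has a pair of overlapping promoters that hold the same PU.1-, NF-kappaB- and C/EBP-type letters; by member, of 29, the counts were 8, 6, 11 and 4 in the same order. These are matches of letters, not sites shown to be bound.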

How the data were processed

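Ventricles of 12 mice were sequenced as bulk RNA, in 3 groups of 4, grouped by the sample titles. The authors deposited raw counts per gene, 1 table per mouse, and the submitters' processing notes name HISAT2, featureCounts and GRCh38. The gene IDs are those of mouse Ensembl, and the sources used here give no versions and no strand setting. The deposited table holds 14957 genes, each with at least 30 counts in all, so genes of lower counts were not analysed here.

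Counts were filtered with filterByExpr by group, which removed 1047 genes and left 13910, scaled by TMM and tested with edgeR 4.0.16 (robust quasi-likelihood, all 12 libraries in 1 model, R 4.3.3), and p-values were adjusted by Benjamini-Hochberg over those 13910 genes. Calls are those with an adjusted p below 0.05. Each SE is the log2 fold change divided by the root of its F, and 95% intervals follow from it with the normal quantile. They are thus narrower than the quasi-likelihood F test itself would give. Alternatives were DESeq2 1.42.0, limma 3.58.1 (voom), other scalings, no filter, other sets of libraries, a term for Fos split at 20 CPM and mouse number as a block. Scripts were tested on simulated data. All Sham-NT libraries had fewer counts than any TAC-mScarlet library. Common biological variation was 0.203. All pairs of libraries of a group differed by more than sampling noise (chi-square at least 5.35 per degree of freedom). P-values measure the spread between mice.

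Positions and exon overlaps are from GENCODE on GRCm38, matched by gene ID. The members and all gene lists were chosen with earlier results of these data known. Values per library are given for members called in any comparison, for the 3 with the smallest p in each and for the members that define a role. Cx3cr1 is among those with the smallest p, and Cd68, Mpeg1 and Cd53 were added after their values were seen. A list of genes outside the members is not reported here.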

Additional observations from a re-analysis of the deposited data

Results flagged for a closer look

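In 9 of the 105 sets of 4 libraries looked at (35 members in 3 groups), 1 library stood apart by Dixon's criterion at the 95% level, which sets its gap to the nearest library against the range of the group. Chance would give about 1 in 20 for independent sets of normally distributed values. The sets here share the same 12 libraries and hold CPM without a log, so that rate is no background for the 9.

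TAC-mScarlet 3 was the high library in 5 of them, with 655 CPM for Lyz2, 43.8 CPM for Laptm5, 35.5 CPM for Tyrobp, 30.0 CPM for Cd53 and 14.2 CPM for Ccl8. The same library had the highest fibroblast marker sum. Sham-NT 1 was the high library for Lgals3 at 15.9 CPM and for Fcgr1 at 3.57 CPM. TAC-BacNav 1 was the low library for Fcgr3 at 35.2 CPM and for Laptm5 at 25.7 CPM.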

How the results depend on the processing

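In TAC-mScarlet against Sham-NT the 6 members called became 11 with DESeq2 and 0 within libraries of high Fos, where fewer libraries enter. With only the 2 groups compared in the model, 2 of 34 members were called, beside 658 of all 13462 genes. Low Fos left only TAC-mScarlet 4 in its group, so calls within it are not counted. Leaving out 1 library at a time gave 0 to 6 members. Counts of 4 (limma-voom), 5 (mouse number as a replicate block), 6 (RLE scaling, or no filter), 7 (library size scaling) and 8 (a term for Fos) were within 1.5 times of the main count. In TAC-BacNav against TAC-mScarlet the count was 0 under each of these settings, and in TAC-BacNav against Sham-NT it was 0 except for 1 with DESeq2. Within libraries of low Fos, TAC-mScarlet 4 alone stood for its group, of which it was the lowest in Ccr2 and Cybb. There the log2 fold change in TAC-mScarlet against Sham-NT was -0.0496 for Ccr2 and -0.0077 for Cybb. Both were of the other sign, and the cause was not tested. They are named because their unadjusted p in the main fit was below 0.05. In these libraries 29 of 34 members were above 0. By CPM, Timd4 was also lower in TAC-mScarlet 4 than in both Sham-NT libraries of low Fos, and Ccl6 and Ccl9 were higher. Each of these 3 went against its sign in the main fit.

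Over all genes, the 719 calls in TAC-mScarlet against Sham-NT became 1371 with DESeq2, 1459 with a term for Fos and 475 with limma-voom. They became 658 with only the 2 groups compared, 889 with the replicate block and 14 to 1055 on leaving out 1 library. The 2 calls in TAC-BacNav against Sham-NT became 38 with DESeq2, 12 with the replicate block, 8 with a term for Fos, 4 within high Fos and 34 within low Fos, and leaving out 1 library gave 0 to 15. The 0 calls in TAC-BacNav against TAC-mScarlet became 5 with DESeq2, 6 with the block and 2 within high Fos. Library size scaling moved the median of all genes by 0.127 in TAC-mScarlet against Sham-NT and the split of calls to 698 higher and 205 lower, against 369 and 350. Same-numbered mice correlated between -0.318 and 0.414 in their deviations, and mice of different number between -0.395 and 0.560. The labels do not state that the numbers pair the mice, so they were not paired in the main fit. Whether an order of handling followed the numbers was not tested. The block lost Mrc1 (adjusted p = 0.0631) and Csf1r (0.0673) and added Il1b (1.79, adjusted p = 0.0478). This left 5 members in TAC-mScarlet against Sham-NT. Low counts limit Spp1, Il6, Tnf, Ccl8, Il1b, Fcgr1, Folr2, Cx3cr1 and Gpnmb, each under 10 counts in at least 1 library.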
